A study of Oryza sativa with 4 samples.

Results

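Diterpenoid phytoalexins are antimicrobial compounds that rice leaves and roots make, chiefly after infection, ultraviolet light or other stress. They start from geranylgeranyl diphosphate, which a class II synthase (CPS) folds into ent- or syn-copalyl diphosphate. A class I synthase of the kaurene synthase-like (KSL) family then closes the remaining ring, and cytochrome P450s and a dehydrogenase oxidise the product into phytocassanes, oryzalexins or momilactones. Several of these genes lie side by side in 2 gene clusters, on chromosomes 2 and 4. The 10 genes described here were taken by their Rice Annotation Project (RAP) IDs from the 37858 genes listed. They comprise 3 genes of the chromosome 2 cluster (CYP76M7, KSL7 and CPS2), 5 of the momilactone cluster on chromosome 4 (CPS4, CYP99A3, MAS, KSL4 and CYP99A2), and 2 genes that lie alone, KSL10 on chromosome 12 and KSL8 on chromosome 11.

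The samples were leaves of the rice cultivar Nipponbare, fully developed and collected 55 d after sowing from plants grown under natural conditions. CS plants came from control seeds that matured at 25 °C, and HDS plants from heat-developed seeds that matured at 30 °C. The plants themselves received no heat, so the comparison asks whether the temperature at which a seed matured is seen in the leaves of the plant grown from it. There were 2 biological replicates of each, and the study counts a single plant as 1 biological replicate. The labels do not say from which plants the libraries came, so P-values measure only the spread between these samples.

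The libraries held between 15444235 and 17298384 expected counts, the authors' estimate of the reads that belong to each gene. All 10 genes passed the filter on low counts, which kept 22184 genes. Levels are given as CPM, a gene's share of its library's counts after TMM scaling, and 1 CPM corresponded to between 14.6 and 17.9 counts. The biological coefficient of variation, the relative spread between replicates across genes, was 0.253 for the CS libraries and 0.135 for the HDS libraries. No comparison of levels between genes was made, since CPM is not corrected for gene length. As these are whole leaves, fewer cells that express a gene and less RNA per cell cannot be told apart. Leaf marker genes were not checked, because the tables used here pair no such gene with its RAP ID.

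The gene names came with the RAP IDs. RefSeq's gene table for the assembly ASM3414082v1 lists 9 of the 10 names, 8 of them on the chromosome that the RAP ID states. The exception was CYP76M7, a name that RefSeq gives to a gene on chromosome 6, whereas Os02g0569900 is on chromosome 2. In RefSeq's gene order CPS4 and CYP99A3 are direct neighbours, as are KSL4 and CYP99A2. Between CPS4 and CYP99A2 lie 7 genes, with CYP99A3, MAS and KSL4 among them. KSL7 and CPS2 have 3 genes between them.

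The 10 genes were chosen by their place in the pathway and by 2 measured values in these same libraries, the difference between HDS and CS plants and the order of the replicates. All such values are therefore a description of the genes, and calls made on them in the fits over all genes are given as counts that support nothing. KSL10 stood far apart from the rest, KSL7 and CPS2 were higher in both HDS libraries than in both CS libraries, and the momilactone genes lay close to their CS levels. KSL4 and CYP99A2 were slightly lower in both HDS libraries than in both CS libraries.

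**Figure D1:**
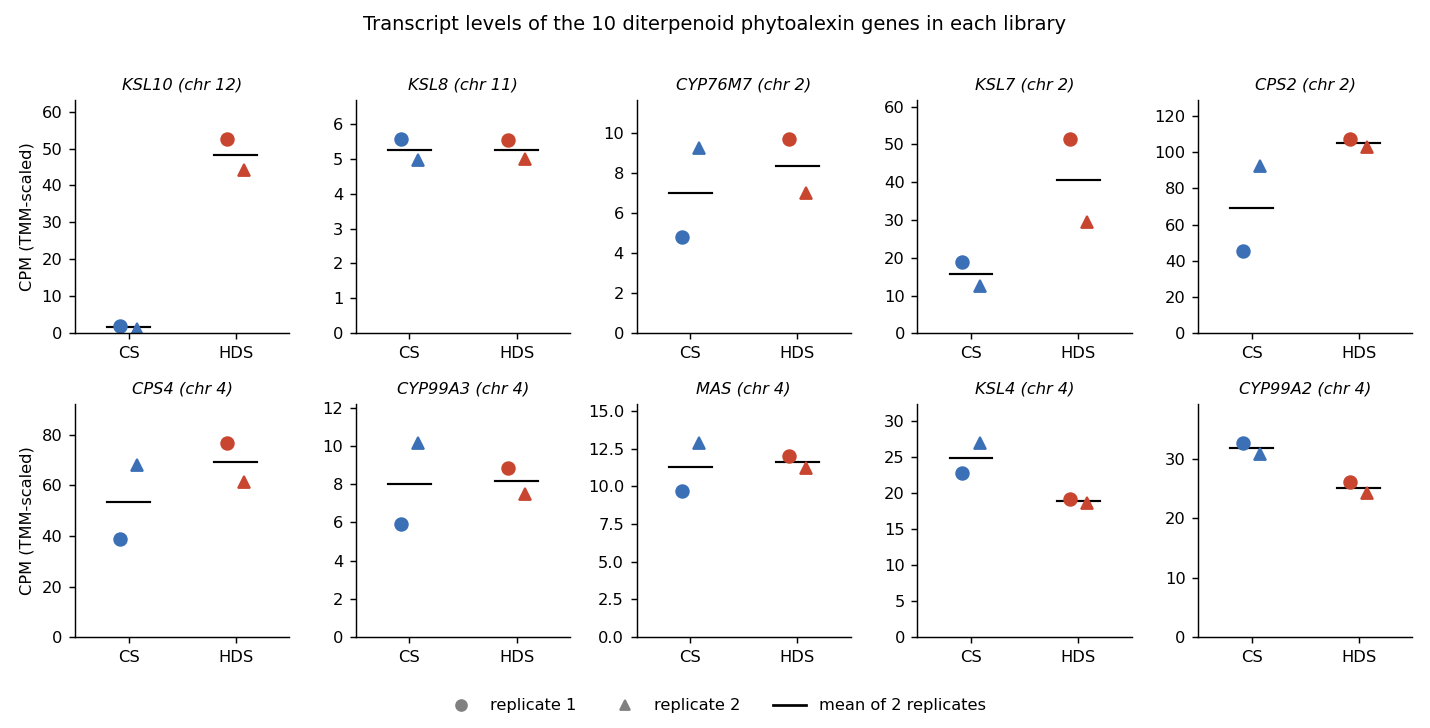
Each panel gives 1 gene's level in CPM in the 4 libraries, on a linear axis that starts at 0, with CS in blue, HDS in red, circles for replicate 1, triangles for replicate 2 and a line at the mean. The treatments are apart for KSL10, KSL7, CPS2, KSL4 and CYP99A2, and overlap in the other 5 genes.

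CPS2 (Os02g0571100) and CPS4 (Os04g0178300) open the pathway: CPS2 supplies ent-copalyl diphosphate for phytocassanes and oryzalexins, and CPS4 the syn form for momilactones and oryzalexin S. CPS2 had 663 and 1603.88 expected counts in CS replicates 1 and 2, against 1915 and 1736.50 in HDS replicates 1 and 2. Its mean was 69.0 ± 33.2 CPM (SD, n = 2) in CS and 105.1 ± 3.07 CPM (SD, n = 2) in HDS plants, a 1.52-fold difference. The counts of CPS4 were 565 and 1177 for CS and 1369 and 1035 for HDS, or 53.4 ± 20.6 and 69.0 ± 10.8 CPM (SD, n = 2 each). In both genes the lowest library was CS replicate 1, and the other 3 libraries lay close together. The treatments overlapped for CPS4, and for CPS2 the gap between CS replicate 2 and the HDS libraries was smaller than that between the CS replicates. Without CS replicate 1 the log2 fold change of CPS2 was 0.18 in place of 0.60, and that of CPS4 was 0.02 in place of 0.37. Without CS replicate 2 they were 1.19 and 0.82.

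Of the synthases that use the ent form, KSL10 (Os12g0491800) makes ent-sandaracopimaradiene, the hydrocarbon of oryzalexins A to F. Its level was 1.99 and 1.15 CPM in CS replicates 1 and 2 against 52.5 and 44.1 CPM in HDS replicates 1 and 2. The means of 1.57 ± 0.592 and 48.3 ± 5.96 CPM (SD, n = 2 each) were 30.7-fold apart. The CS values rest on only 29 and 20 counts. KSL7 (Os02g0570400) makes ent-cassadiene, the hydrocarbon of the phytocassanes. Its counts were 275 and 215 for CS against 918 and 498 for HDS. At 15.6 ± 4.58 CPM in CS and 40.5 ± 15.5 CPM in HDS plants (SD, n = 2 each), it was 2.59-fold higher in HDS plants, with a log2 fold change of 1.38 (standard error 0.50, from the spread between replicates). Both HDS libraries were above both CS libraries in KSL10 and KSL7, and in each treatment replicate 1 was the higher.

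CYP76M7 (Os02g0569900) hydroxylates ent-cassadiene, the product of KSL7. Its counts were 70 and 160 for CS and 173 and 118 for HDS. With 7.02 ± 3.13 and 8.34 ± 1.91 CPM (SD, n = 2 each) the treatments overlapped, and CS replicate 2 was above HDS replicate 2. The log2 fold change of 0.24 became -0.15 without CS replicate 1 and 0.78 without CS replicate 2. The treatments were thus apart for the synthase of ent-cassadiene and not for this P450.

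On the syn side, KSL4 (Os04g0179700) makes syn-pimaradiene for the momilactones and KSL8 (Os11g0474800) makes syn-stemarene for oryzalexin S. KSL4 reached 332 and 468 counts in the CS libraries but 342 and 314 in the HDS libraries. Its means were 24.9 ± 2.97 and 18.9 ± 0.382 CPM (SD, n = 2 each), 1.32-fold higher in CS plants. KSL8 had 81 and 86 counts in the CS libraries against 99 and 84 in the HDS libraries. Its means of 5.26 ± 0.425 and 5.26 ± 0.400 CPM (SD, n = 2 each) were alike, and the treatments overlapped. So the 4 KSL genes covered the whole range of differences, from KSL10 far above its CS level to KSL4 below it.

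The tailoring enzymes of the momilactone cluster followed 2 patterns. CYP99A3 (Os04g0178400), a P450 that oxidises syn-pimaradiene, had counts of 86 and 176 for CS and 158 and 126 for HDS. MAS (Os04g0179200), the dehydrogenase named for the synthesis of momilactone A, had counts of 141 and 223 for CS and 214 and 189 for HDS. In both, the HDS libraries lay between the CS libraries, and the log2 fold changes were 0.02 (standard error 0.40) and 0.04 (standard error 0.21). CYP99A2 (Os04g0180400), the other P450 of the cluster, had counts of 476 and 535 for CS and 466 and 409 for HDS. At 31.8 ± 1.29 CPM in CS and 25.2 ± 1.31 CPM in HDS plants (SD, n = 2 each), it was 1.26-fold higher in CS plants with no overlap, as KSL4 was. The log2 fold changes of KSL4 and CYP99A2 were -0.40 (standard error 0.12) and -0.34 (standard error 0.07). These standard errors rest on 2 replicates per treatment, and with all libraries neither gene was called by either of the tests given below.

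**Figure D2:**
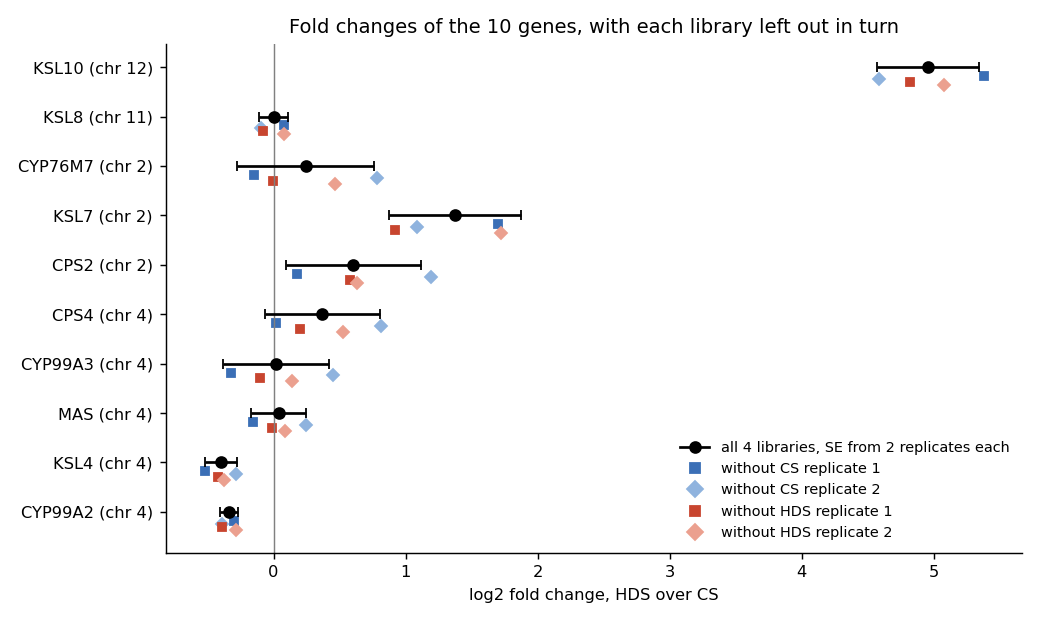
Log2 fold change of each gene, HDS over CS, with all 4 libraries (black, bars are the standard error from 2 replicates per treatment) and with each library left out (squares for replicate 1, diamonds for replicate 2, blue for CS, red for HDS). KSL10 stays between 4.58 and 5.37 and KSL7 between 0.92 and 1.72, while CYP76M7 runs from -0.15 to 0.78 and CYP99A3 from -0.32 to 0.45.

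By cluster, the log2 fold changes ran from 0.24 to 1.38 on chromosome 2 (median 0.60, 3 genes) and from -0.40 to 0.37 on chromosome 4 (median 0.02, 5 genes). Over all 22184 genes the median was 0.01. CYP76M7, the lowest on chromosome 2, was below CPS4, the highest on chromosome 4, so the clusters overlapped, and their difference was not tested. Both medians were lower without CS replicate 1, at 0.18 and -0.30, and higher without CS replicate 2, at 1.08 and 0.25. The order of the clusters was the same with each library left out, but the median on chromosome 4 was below 0 without CS replicate 1 or HDS replicate 1 and above 0 otherwise. Of the 10 genes, 3 had both HDS libraries above both CS libraries (21.0% of all genes did), and 2 had both below (19.5% of all genes did).

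The study called genes by edgeR's exactTest at P < 0.05, without adjustment, together with an absolute log2 fold change of 0.37 or more. KSL10 and KSL7 met this, 2 of 10. Over all genes 7.88% met it, 4.18% with the higher and 3.70% with the lower level in HDS plants. The stricter quasi-likelihood test of edgeR, with Benjamini-Hochberg adjustment at 0.05, called KSL10 alone. It called 0.699% of all genes, 0.248% as higher and 0.451% as lower in HDS plants. Of these calls 35.5% were higher. The share was 35.1% with RLE normalization, 35.5% with upper quartile normalization and 36.8% with total counts. It was 51.3% with no filter beyond 1 count, 50.1% with DESeq2, 53.7% with exactTest and adjusted P, and 55.5% under the replicate block. The share also changed with the library left out. These counts describe the choice of the genes.

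Which CS library was used decided several of these calls. A treatment with 1 library left is assumed to vary as the other does. Without CS replicate 2 the study's criteria took in 6 of the 10 genes, adding CPS2, CYP76M7, CPS4 and, with a lower level in HDS plants, CYP99A2, and the share of all genes was 18.6%. Without CS replicate 1 they took in KSL10, KSL7 and, lower in HDS plants, KSL4, beside 7.37% of all genes. The quasi-likelihood test called KSL7 beside KSL10 when CS replicate 1 was left out (2.18% of all genes). It called CPS2 and CPS4 beside KSL10 when CS replicate 2 was left out (10.9% of all genes). Without HDS replicate 1 or HDS replicate 2 the calls were the same as with all libraries. The share of all genes was then 3.90% by the study's criteria and 0.281% by the quasi-likelihood test without HDS replicate 1, and 0.558% by the latter without HDS replicate 2. Without HDS replicate 2 the study's criteria were met by 1462 of 29235 genes.

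The order of the replicates was the second feature for which these genes were put together, and it too is a description. In HDS plants all 10 genes were higher in replicate 1 than in replicate 2, as were 51.4% of all genes. The log2 ratio of replicate 1 to replicate 2 ran from 0.04 for KSL4 to 0.80 for KSL7, with a median of 0.20 against 0.01 over all genes. The spread of this ratio over all genes was 0.47 (SD), and only KSL7 lay further than that from 0. Counting error alone was smaller than the difference in KSL7, CYP76M7, CPS4 and KSL10, whose exact 95% binomial intervals did not hold 0. Those intervals were 0.64 to 0.96 for KSL7, 0.12 to 0.82 for CYP76M7, 0.20 to 0.44 for CPS4 and 0.11 to 0.39 for KSL10. The remaining 6 genes could not be told from equal levels at this depth. The intervals cover counting error only.

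In CS plants the genes parted. CPS2, CYP76M7, CPS4, CYP99A3, MAS and KSL4 were lower in replicate 1, as were 49.7% of all genes, while KSL10, KSL7, KSL8 and CYP99A2 were higher there, as were 50.3% of all genes. Both orders together, lower in CS replicate 1 and higher in HDS replicate 1, were seen in 6 of the 10 genes and in 27.8% of all genes. CPS2 was 2.03-fold, CYP76M7 1.92-fold and CPS4 1.75-fold lower in replicate 1 than in replicate 2. KSL7 was 1.52-fold higher in replicate 1. The counting intervals did not hold 0 for 7 genes, namely the 6 lower genes and KSL7, and the spread over all genes was 0.68 (SD of the log2 ratio). CPS2 was the only one of the 10 at least 1 log2 unit lower in replicate 1 (6.06% of all genes were). In 5 of the 10 genes CS replicate 1 was the lowest of all 4 libraries, as in 34.9% of all genes.

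**Figure D3:**
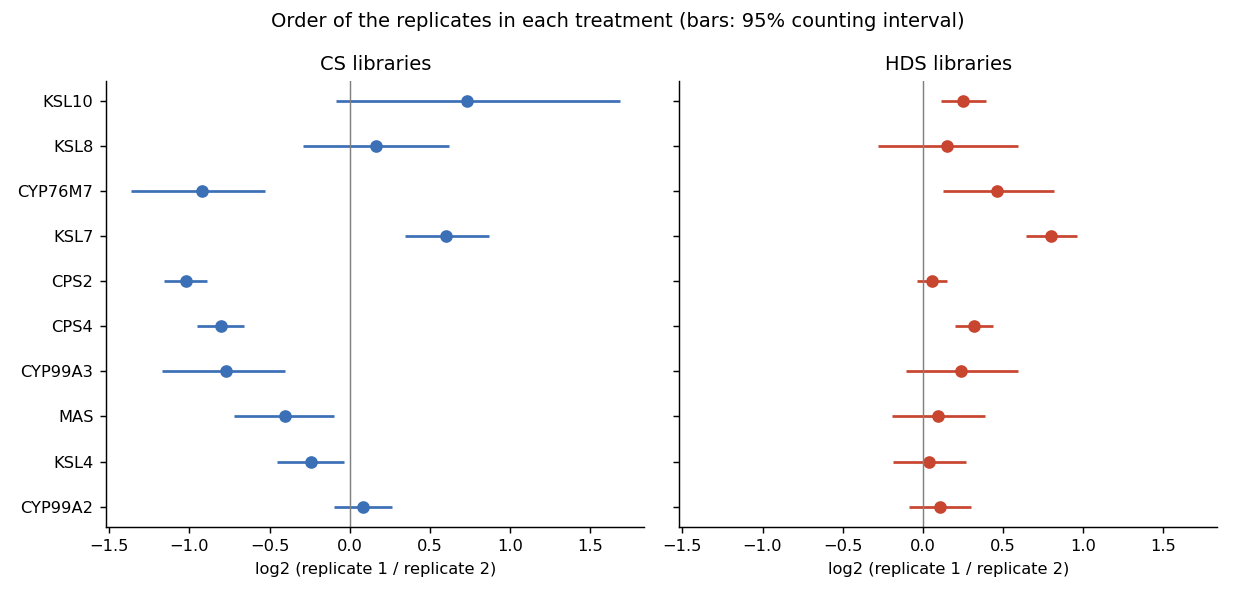
Log2 ratio of replicate 1 to replicate 2 in the CS libraries (left) and the HDS libraries (right) for each gene, with bars for the exact 95% binomial interval of the counts. In HDS all points lie right of 0, from 0.04 to 0.80, whereas in CS they run from -1.02 for CPS2 to 0.73 for KSL10.

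Along the momilactone cluster, from CPS4 through CYP99A3, MAS and KSL4 to CYP99A2 the log2 ratio of CS replicate 1 to replicate 2 was -0.81, -0.77, -0.41, -0.24 and 0.08. This order was noticed after the values were seen, holds for the 5 members in 1 pair of libraries only, and was not tested. It is broken by a further gene kept between CYP99A3 and MAS, whose ratio was 0.20. On chromosome 2 KSL7 (0.60) lies between CYP76M7 (-0.92) and CPS2 (-1.02). Thus replicate 1 was the lower CS library in both copalyl diphosphate synthases. It was also the lower one in CYP76M7, CYP99A3, MAS and the class I synthase KSL4. For KSL4, though, its 22.8 CPM lay above both HDS libraries, at 19.2 and 18.6 CPM. Of the 2 ent-copalyl diphosphate users, KSL7 had the CS replicates in the opposite order. KSL10 had only 29 and 20 counts in the CS libraries, and its counting interval of -0.08 to 1.69 held 0. This contrast too was seen only after the values were known and was not tested.

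The ratio of the counts of 2 genes within a library needs no scaling for depth, and gene length cancels when such ratios are compared between libraries. CPS2 over CPS4 was 1.17 and 1.36 in CS replicates 1 and 2 and 1.40 and 1.68 in HDS replicates 1 and 2. Both CS ratios were below both HDS ratios, but the nearest CS and HDS values were closer than the replicates of either treatment. Between the CS replicates the log2 ratio of CPS2 to CPS4 differed by -0.22, less than the levels of CPS2 (-1.02) and CPS4 (-0.81). Between the HDS replicates it differed by -0.26, more than the level of CPS2 (0.06). KSL4 over CPS4 was 0.588 and 0.398 for CS against 0.250 and 0.303 for HDS, with no overlap. The mean log2 difference was -0.81 (standard error 0.31), and the CS replicates themselves differed by 0.56. KSL8 over CPS4, at 0.143 and 0.0731 in CS and 0.0723 and 0.0812 in HDS plants, overlapped between the treatments. CYP99A2 over KSL4 stayed between 1.14 and 1.43 in all 4 libraries, with overlap. CYP99A2 over CPS4, at 0.842 and 0.455 in CS and 0.340 and 0.395 in HDS plants, was lower in both HDS libraries. Its mean log2 difference was -0.75 (standard error 0.46), and the CS replicates themselves differed by 0.89.

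On the ent side, KSL10 over CPS2 was 0.0437 and 0.0125 in CS and 0.490 and 0.428 in HDS plants, with a wide gap between the treatments. KSL7 over CPS2 was 0.415 and 0.134 in CS and 0.479 and 0.287 in HDS plants. Here the treatments overlapped, and the CS replicates lay further apart than the means of the treatments. KSL10 over KSL7 was 0.105 and 0.0930 in CS and 1.02 and 1.49 in HDS plants. KSL10 was therefore apart between treatments when set against KSL7, the other class I synthase of ent-copalyl diphosphate described here.

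**Figure D4:**
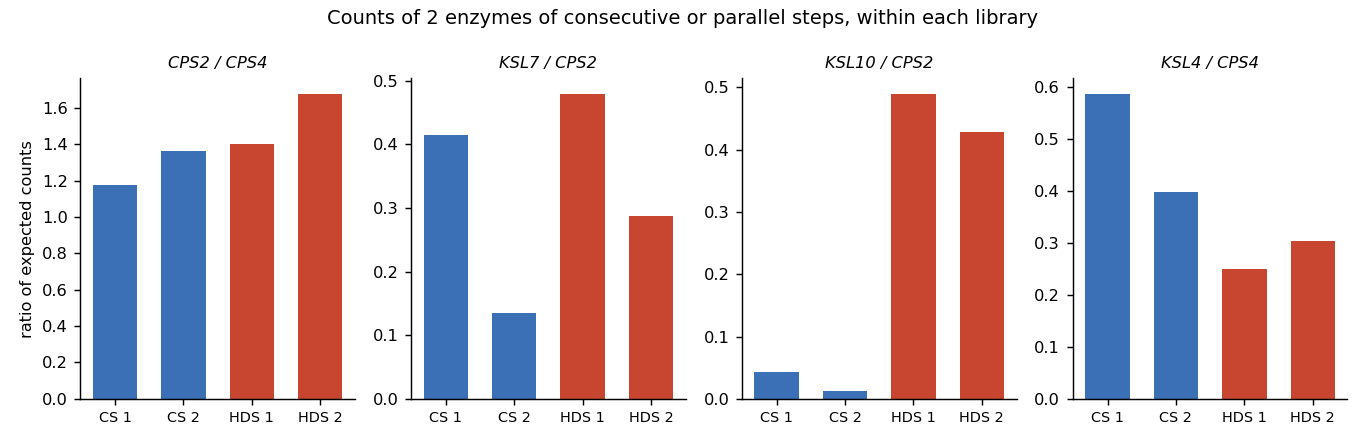
Ratio of the expected counts of 2 genes in each library, CS in blue and HDS in red, on axes that start at 0. KSL10 / CPS2 is at most 0.0437 in CS and at least 0.428 in HDS, KSL4 / CPS4 is lower in both HDS libraries, and KSL7 / CPS2 overlaps between treatments.

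The genes listed next to the members were compared to see where along each chromosome the members' pattern ended. All RAP IDs between the first and the last member of a cluster and 5 rows on either side were taken, which gave 28 further genes, 15 of them kept by the filter. These were not chosen for their own values, but the windows were placed around members that were, so their values are a description too. No table used here pairs their IDs with names. In edgeR's quasi-likelihood test, adjusted over all 22184 genes, 1 of the 15 was called (0.699% of all genes were), and 3 had an unadjusted P under 0.05 (9.23% of all genes did). It was Os02g0570700, which lies between KSL7 and CPS2 and rose from 198.38 and 316.92 expected counts in CS replicates 1 and 2 to 913.47 and 755.30 in HDS replicates 1 and 2. The quasi-likelihood fit of edgeR gave a log2 fold change of 1.59 and an adjusted P of 0.0329. The standard error from the spread between replicates was 0.23, and both HDS libraries were above both CS libraries. Over the alternatives its adjusted P ran from 5.1e-09 (exactTest of edgeR) to 0.102 (without HDS replicate 1, log2 fold change 1.49), the only setting in which the call was lost. Its counts were not whole, but those of 4 neighbouring genes, itself included, summed to whole numbers, 405 and 700 in CS and 1340 and 1128 in HDS plants, so reads had been divided among them. The sum of these 4 genes was 34.1 ± 8.89 CPM in CS and 71.0 ± 5.78 CPM in HDS plants (SD, n = 2 each), a 2.08-fold difference that does not depend on how the reads were divided.

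The other 9 genes kept on chromosome 2 had log2 fold changes between -0.19 and 1.27, and the 5 on chromosome 4 between -0.60 and 0.50. Of the 10 on chromosome 2, 6 had both HDS libraries above both CS libraries, against 2 of the 5 on chromosome 4 (21.0% of all genes). Both HDS libraries were below both CS libraries in 0 of the 10 and in 2 of the 5 (19.5% of all genes). Outside the span of the members, 4 of 6 kept genes on chromosome 2 were above and 0 below (21.0% and 19.5% of all genes). On chromosome 4, 2 of 4 such genes were above and 1 below. These windows therefore did not show where the members' pattern ended, and this was not tested. In HDS plants 11 of the 15 were higher in replicate 1 (51.4% of all genes), and in CS plants 9 of the 15 were lower in replicate 1 (49.7% of all genes). Among the members only CPS2 had counts that were not whole. With the gene listed just before it, CPS2 sums to 1605 in CS replicate 2 and 1738 in HDS replicate 2, and that gene held fewer than 2 of these reads in each library.

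**Figure D5:**
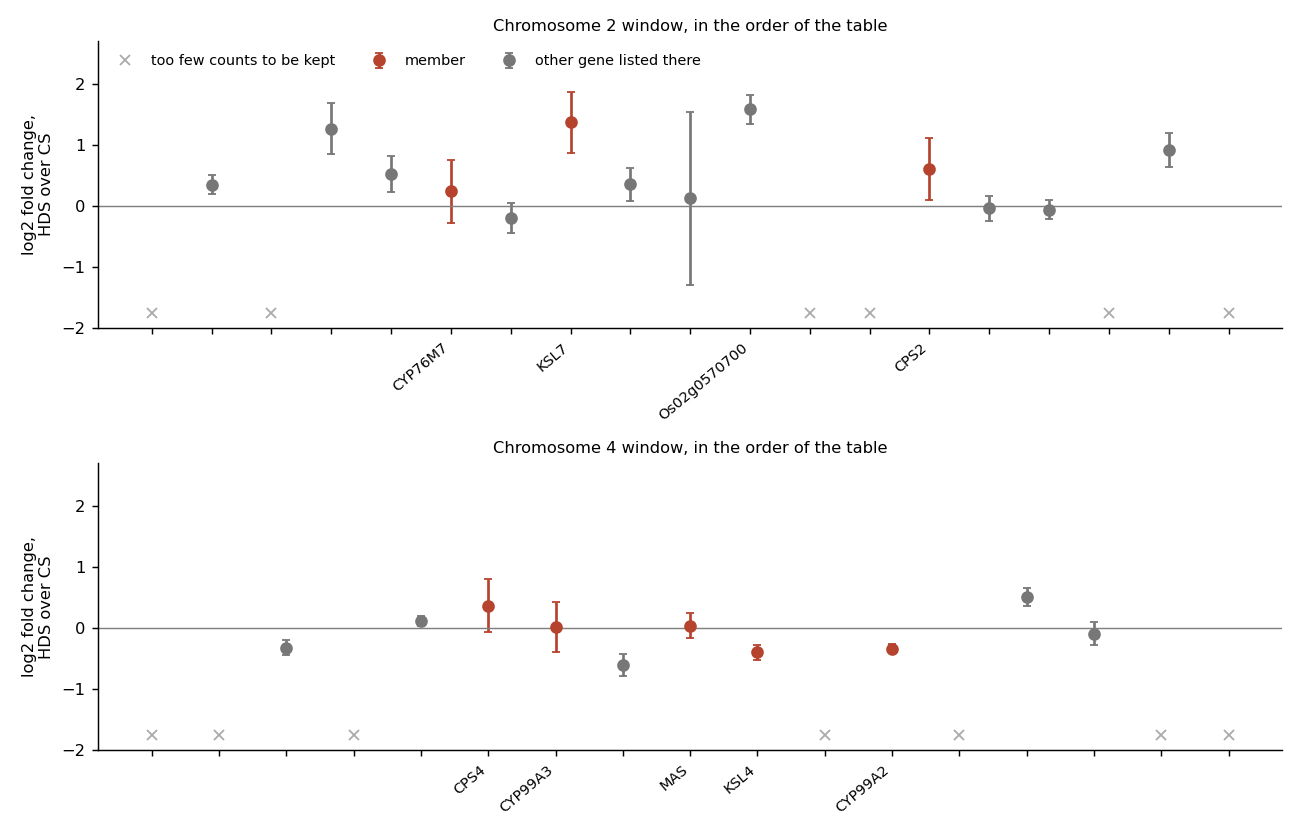
Log2 fold change, HDS over CS, of the genes in and beside the clusters on chromosomes 2 (top) and 4 (bottom), evenly spaced in the order of their RAP IDs, with members in red, other genes in grey and crosses for genes with too few counts. Bars are standard errors from 2 replicates per treatment. Os02g0570700 (1.59) and KSL7 (1.38) are the highest of the top panel, and the chromosome 4 genes stay between -0.60 and 0.50.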

How the data were processed

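Leaf RNA was sequenced as 150-bp reads in 2 CS and 2 HDS libraries, grouped by their sample labels. The paper and the labels name different stranded kits. The authors estimated expected counts per gene with RSEM and deposited these expected counts in 1 table without normalization. The submitters' processing notes name FastQC 0.11.7, Trimmomatic, Bowtie2, RSEM, edgeR 3.26.3 and the build IRGSP-1.0. RSEM shares out reads that match more than 1 gene, so levels of near-identical genes are uncertain. The table has 0 rows that name no gene.

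Rounded counts were tested in edgeR 4.0.16, and as an alternative in DESeq2 1.42.0, under R 4.3.3. The quasi-likelihood test ran on the 22184 genes kept by filterByExpr with TMM scaling and Benjamini-Hochberg adjustment, and the study's exactTest criteria on the 29698 genes with at least 1 count. Fold changes of the 10 genes come from the quasi-likelihood fit. Standard errors come from log2 CPM (prior count of 2) of the 2 replicates per treatment. Scripts were tested on simulated data. The alternatives were other normalizations, filters and tests, a replicate block, and each library left out.

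The 10 genes and the lists were chosen with earlier results of these data known. All 10 genes are named. Other pathway, defence and marker genes had been listed too, but their names may be used only where a table pairs them with RAP IDs, and none used here does, so they were not used. No gene was sought for a pattern like that of the 10 genes, since 4 libraries are too few for a correlation. Of the genes between or next to the members, Os02g0570700, which lies within the chromosome 2 cluster, was named after its values were seen.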

Additional observations from a re-analysis of the deposited data

How the results depend on the processing

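With 2 libraries per treatment, 1 library can decide a call. The 155 genes called by the quasi-likelihood test were 419 with no filter beyond 1 count, 551 with DESeq2, 724 with exactTest and adjusted P, and 64 to 2506 with each library left out. Under the replicate block 532 genes were called, and the deviations of same-numbered libraries were uncorrelated across genes (r = 0.00393), so the numbers are not taken to pair the libraries. Of the 10 genes, 2 (KSL10 and KSL7) were called with no filter, with DESeq2, with exactTest and under the replicate block, and 1 to 3 with each library left out. Of the genes beside the clusters, 0 to 2 were called with each library left out. The 2340 genes that met the study's criteria became 707 with adjusted P, an alternative added after the data were seen, and 1132 to 5430 with each library left out. Of the 10 genes, 2 to 6 met the criteria then. The replicate orders (10 of 10 genes in HDS and 6 of 10 in CS plants) were the same with another prior count and with RLE normalization. The planned comparison of other pathway genes was not run.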
